A study of Mus musculus with 16 samples.

Results

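The enzymes that build cholesterol were followed in the medial prefrontal cortex (mPFC) of mice after chronic social defeat stress, as the RNA of 7 genes: Hmgcs1, Idi1, Fdps, Fdft1, Sqle, Cyp51 and Dhcr7. A probe was taken when the platform annotation of the array gave it one of these symbols. This found 7 probes of the 25697 on the array for 6 of the 7 genes, since Sqle has 2 probes and Fdft1 was not matched by symbol and is not analysed here. All 7 probes were detected on all 16 arrays, at a detection p-value of 0.05 or less. None of these genes takes cholesterol up into a cell, so uptake and transport genes are given from a separate list.

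Male C57BL/6 J mice (C57BL/6 in the labels) were defeated on 10 days from 8 weeks of age by aggressive CD-1 mice, and were called resilient or susceptible from the time they then spent near an unfamiliar CD-1 mouse. Control mice of the same strain were housed and moved in a similar way but not defeated, and took the same interaction test. The left and right mPFC were dissected 1 day after that test. RNA of each side was hybridized to MouseRef-8 v2 arrays of Illumina, with 2 arrays per side for control mice and 3 per side for resilient and for susceptible mice. The labels give 7 mice per group, whereas the methods give more for control and resilient mice. Equal amounts of RNA from single mice were pooled before hybridization, so p-values refer to how arrays of pooled RNA varied, which leaves out how single mice varied. The number of arrays limits the precision of every value below.

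Cholesterol synthesis starts from acetyl-CoA. HMG-CoA synthase 1 (Hmgcs1) makes the precursor of mevalonate, Idi1 and Fdps turn the isoprenoids derived from mevalonate into farnesyl diphosphate, Fdft1 joins these into squalene, Sqle oxidizes squalene, and Cyp51, Msmo1 and Dhcr7 work on the ring-closed sterols up to cholesterol. When sterols in the membrane of the endoplasmic reticulum are low, INSIG releases SCAP together with the transcription factor SREBP2. SREBP2 then turns on the genes of the whole pathway together. The brain makes its own cholesterol because lipoproteins do not cross the blood-brain barrier, and much of it lies in myelin, the sheath that oligodendrocytes wrap around axons. In a tissue sample fewer cells of a type and less RNA per cell cannot be told apart.

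The promoters are shown because SREBP2 acts on them, with its site, the sterol regulatory element (TCACNCCAC), and the neighbouring CCAAT box (CCAAT), which NF-Y binds, in capitals wherever either stands on either strand. Sequences are from RefSeq (GRCm38.p6) and run 5′ to 3′ along the gene up to the base before its start. Hmgcs1 lies at chr13:119690351-119708260, Idi1 at chr13:8885606-8892396, Fdps at chr3:89093588-89101967, Sqle at chr15:59315092-59331193, Cyp51 at chr5:4080674-4104697 and Dhcr7 at chr7:143823167-143848410. Msmo1, a sterol methyl oxidase of the same pathway, lies at chr8:64718123-64733578. The stretches printed are chr13:119690101-119690350 (plus strand) for Hmgcs1, chr13:8885506-8885605 (plus) for Idi1, chr5:4104698-4104797 (minus) for Cyp51 and chr8:64733579-64733678 (minus) for Msmo1.
Hmgcs1: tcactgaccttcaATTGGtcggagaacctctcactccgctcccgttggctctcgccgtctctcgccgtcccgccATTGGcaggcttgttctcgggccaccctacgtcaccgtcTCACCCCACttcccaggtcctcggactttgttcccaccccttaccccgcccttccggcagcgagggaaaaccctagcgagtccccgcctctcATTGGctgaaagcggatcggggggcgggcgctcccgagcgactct
Idi1: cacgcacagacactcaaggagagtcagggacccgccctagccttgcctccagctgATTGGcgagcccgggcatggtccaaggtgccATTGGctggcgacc
Cyp51: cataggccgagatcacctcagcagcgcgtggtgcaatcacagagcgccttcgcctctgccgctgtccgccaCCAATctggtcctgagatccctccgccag
Msmo1: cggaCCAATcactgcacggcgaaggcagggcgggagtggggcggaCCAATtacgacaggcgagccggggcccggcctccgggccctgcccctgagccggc
Over 300 bases, 250 before to 50 after the start, promoters of 4 members were found (Hmgcs1, Idi1, Cyp51, and Dhcr7 with 3 starts, 6 promoters in all). The letters TCACNCCAC stood in 1 of these 6, that of Hmgcs1, at bases -137 to -129 from the start, against 1.24% of 32851 promoters. CCAAT boxes stood in 4 of 6 (37.4% of all promoters), GC boxes (GGGCGG), a site of SP1, in 5 of 6 (35.7%) and the E-box CACGTG in 1 of 6 (7.15%). Only these exact letters were searched, so a sterol regulatory element with other letters was not counted. These counts describe the letters in the window and nothing about binding.

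**Figure D1:**
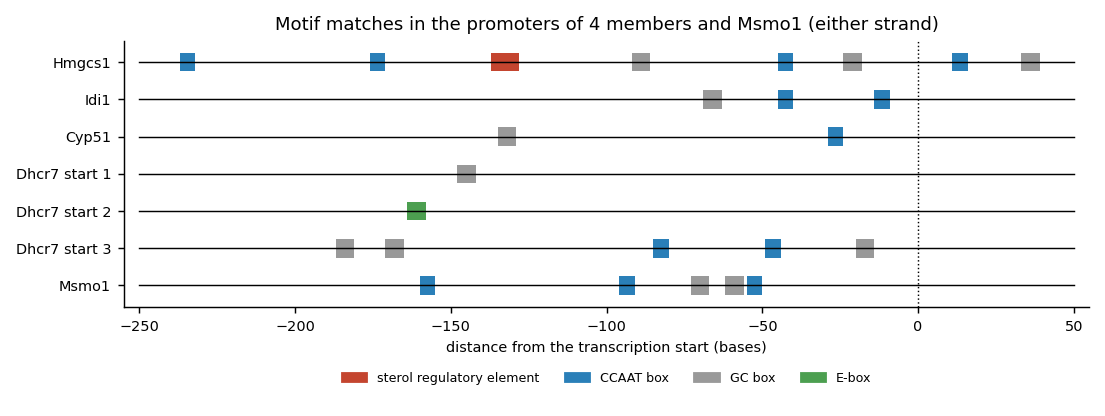
Motif matches in the promoters of Hmgcs1, Idi1, Cyp51, Dhcr7 (3 starts) and Msmo1, by distance from the transcription start in bases; each coloured box is 1 match on either strand. The single match to the exact letters TCACNCCAC is in the Hmgcs1 promoter, and each of these 5 genes has at least 1 CCAAT box. Sterol regulatory elements with other letters were not searched.

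Mean signals were 466 to 567 on the first 8 arrays of the deposited table, which hold all 4 control arrays and replicate 1 of each defeated group, and 376 to 463 on the other 8. Between 13648 and 14397 probes were detected per array, and 6 of 10 neuron markers, 9 of 10 astrocyte markers and 15 of 18 myelin genes with a probe were detected on every one. Signals were compared as log2 values after quantile normalization, over the 8419 genes with a probe detected on all arrays. A gene was called when its Benjamini-Hochberg adjusted p in the limma fit was below 0.05, and each value is a log2 difference with its standard error. The raw signals of the members' probes lay above the median of all probes, which was 89.4 to 111.6. They ran from 10711 to 16437 for Hmgcs1, 1535 to 2553 for Fdps, 1393 to 2509 and 175 to 294 for the probes of Sqle, 350.2 to 582 for Cyp51, 116 to 204 for Idi1 and 114 to 198 for Dhcr7.

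To determine which of these genes differed after defeat, the 12 arrays of defeated mice were compared with the 4 control arrays. Fdps, which makes farnesyl diphosphate for sterols and for protein prenylation, was the only member called: it was 1.25-fold higher in defeated mice. Its log2 signal was 10.69 and 10.73 on the control left arrays and 10.78 and 10.66 on the control right arrays. In resilient mice it was 11.00, 11.06 and 10.97 on the left and 10.96, 11.05 and 10.97 on the right. In susceptible mice it was 10.86, 11.03 and 11.05 on the left and 11.06, 11.18 and 11.19 on the right. All 12 defeated arrays lay above all 4 control arrays, which held for 1.47% of the 8419 genes. The change was 0.32 ± 0.05 (95% confidence interval 0.22 to 0.41, adjusted p 4.9e-05), and 22 genes rose more. Of the 6 measured members 1 was called and it rose, beside 11.2% of all genes called in either direction and 5.27% called higher.

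Fdps was also called in each defeated group on each side, with 1 of 6 members called every time. The change was 0.43 ± 0.07 in susceptible right mPFC (adjusted p 5.8e-04, with 2.3% of all genes called higher), 0.27 ± 0.07 in susceptible left (0.030, 1.91%), 0.30 ± 0.07 in resilient left (0.022, 1.37%) and 0.28 ± 0.07 in resilient right (0.033, 1.18%). The comparisons of one side share their 2 control arrays. The call for susceptible right and the call over both sides held without any single array (0.36 to 0.49 and 0.29 to 0.35). The other calls were lost without either control array of their side, and also without susceptible left replicate 2 or 3, resilient left replicate 2, or resilient right replicate 2 or 3, with adjusted p up to 0.276, 0.244 and 0.377 in that order of groups. The changes themselves stayed at 0.23 to 0.33, 0.27 to 0.32 and 0.22 to 0.34, and leaving out a control array left 1 on that side, assumed to vary like the other groups. With these 2 sets of 8 arrays fitted as a block, the change over both sides was 0.26 (adjusted p 0.0040). Within the first 8 arrays alone it was also 0.26, which is the same estimate and no second check. All control arrays and replicate 1 of each defeated group lie in the first 8. The change over both sides in the block fit therefore rests on those arrays too. Per side, the block left 0.36 in susceptible right (0.0037) and 0.21 to 0.24 in the other 3 groups, not called (0.114 to 0.146).

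The scaling of the arrays moved these values. When arrays were only brought to equal medians, and not quantile normalized, the median change of all genes moved to -0.16 for defeated against control mice, and Fdps then stood at 0.09 (adjusted p 0.346), which is 0.25 above that median. Per side Fdps was 0.39 above the median of all genes in susceptible right, 0.18 in susceptible left, 0.22 in resilient left and 0.23 in resilient right, none called, and in susceptible left its own value turned to -0.03. Cyclic loess, normexp background correction and the deposited normalized values gave 0.30 to 0.33 over both sides, all called.

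Astrocyte markers moved with the same contrast. All 9 measured markers were lower in defeated mice (median -0.11), and 2 were called lower, S100b at -0.41 ± 0.05 and Slc1a3 at -0.13 ± 0.04, named here after their values were seen, beside 5.96% of all genes called lower. The summed signal of the 9 was 31022 to 31803 on control arrays, 28149 to 30458 on resilient and 27077 to 30083 on susceptible arrays. Of other cell types, P2ry12 (-0.33 ± 0.05) and Ctss (-0.27 ± 0.08) of 8 microglia markers, Gad1 (-0.23 ± 0.06) of 6 neuron markers and Olig1 (-0.16) of 6 oligodendrocyte precursor markers were called lower, and also named after their values were seen. The other neuron markers were at 0.03 (Slc17a7), -0.01 (Syt1 and Rbfox3), -0.02 (Slc32a1) and -0.08 (Camk2a), none called. The other precursor markers lay between -0.13 (Gpr17) and 0.03 (Cspg4), none called. Whether any of this has a part in the Fdps difference was not tested.

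**Figure D2:**
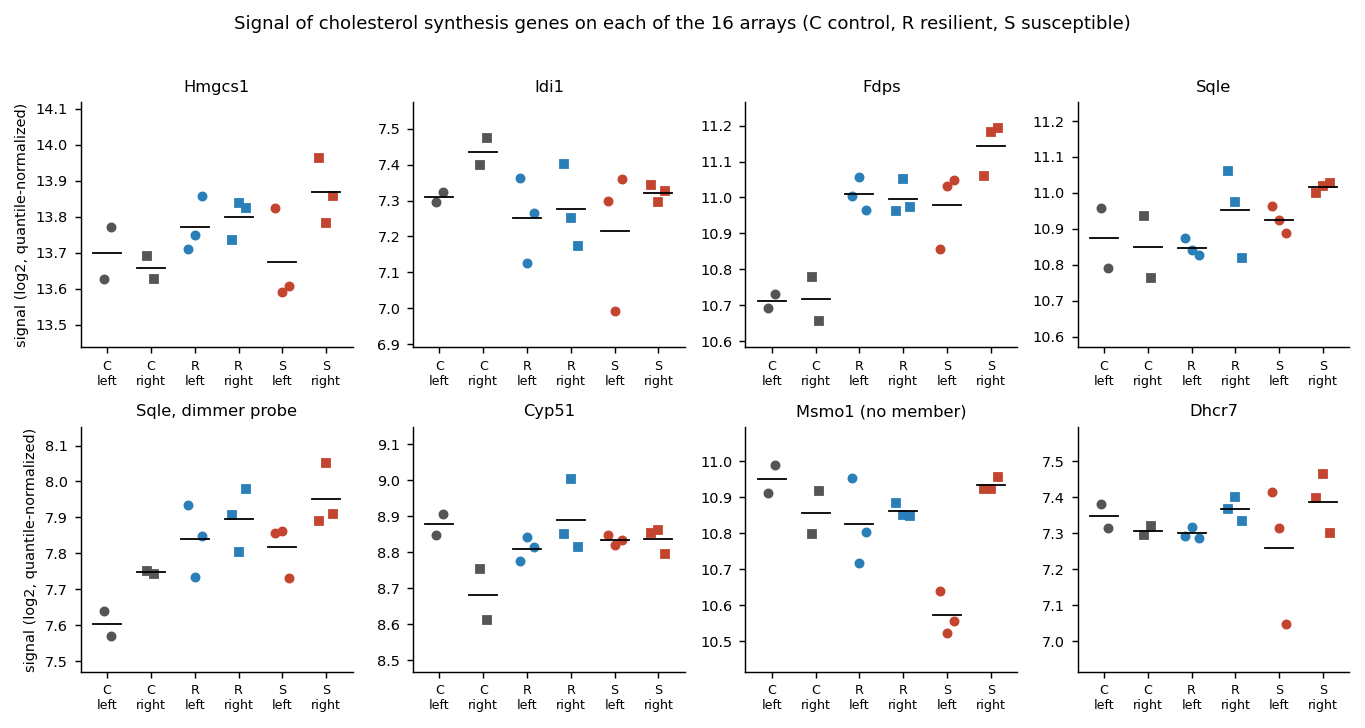
Log2 signal after quantile normalization (y axis, each panel spanning the same range) of each member's probe and of Msmo1 in the 6 groups; points are arrays (circles left, squares right) and bars are group means. Fdps is above all 4 control arrays on all 12 defeated arrays (with arrays brought to equal medians the susceptible left change is -0.03), and Msmo1 is lowest on the 3 susceptible left arrays.

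The other 5 members were not called in defeated against control mice. Hmgcs1, whose product feeds the whole pathway, was at 0.10 ± 0.05 (interval -0.00 to 0.20, adjusted p 0.195). Sqle, which carries out the first oxygen-dependent step, was at 0.07 ± 0.05 (0.332) and Cyp51, the lanosterol demethylase, at 0.06 ± 0.04 (0.376). Dhcr7, which reduces 7-dehydrocholesterol to cholesterol in the last step, was at 0.00 ± 0.05 (interval -0.10 to 0.11). Idi1, the isomerase of the isoprenoid units, was the only one with a negative value, -0.11 ± 0.06 (interval -0.22 to 0.01, adjusted p 0.228). The median of the 6 members was 0.07, beside 0.01 for all genes. With arrays scaled to a common median, 5 of the 6 stood above the median of all genes, while Hmgcs1, Sqle, Cyp51 and Dhcr7 turned negative in their own values.

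The 2 probes of Sqle did not give the same call. On the dimmer one, chosen here after its values were seen, Sqle was 7.57 to 7.64 on control left, 7.74 to 7.75 on control right and 7.73 to 8.05 on the defeated arrays, so that defeated arrays lay above all control left arrays and overlapped with control right. Its change was 0.20 ± 0.05 (adjusted p 0.0076 over 11222 probes), against 0.07 on the brighter probe. It was not called without control left replicate 2 (0.18, adjusted p 0.0585), nor with arrays scaled to a common median, where it was 0.05, or 0.20 above the median of all probes. The mean of both probes was called at 0.14 (adjusted p 0.028).

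The members were also compared with control on each side separately. On the right, 5 of 6 members were above control in susceptible and in resilient mice (medians 0.16 and 0.12), and in each case 4 of 6 had all defeated arrays above both control arrays, beside 18.9% and 17.6% of all genes. On the left, 4 of 6 were below control in each group (medians -0.03 and -0.04). The right sides gave 0.21 ± 0.08 for Hmgcs1, 0.17 ± 0.07 for Sqle, 0.15 ± 0.07 for Cyp51, 0.08 ± 0.08 for Dhcr7 and -0.11 ± 0.09 for Idi1 in susceptible mice. In resilient mice they gave 0.14 ± 0.08, 0.10 ± 0.07, 0.21 ± 0.07, 0.06 ± 0.08 and -0.16 ± 0.09 for the same genes. No member but Fdps was called on either side. On the left the other 5 members lay between -0.09 (Idi1) and 0.05 (Sqle) in susceptible and between -0.07 (Cyp51) and 0.07 (Hmgcs1) in resilient mice. The 2 control right arrays were low for Cyp51 (8.75 and 8.61, below every other array). With arrays scaled to a common median, 5 of 6 members on the right still stood above the median of all genes, although 2 of 6 in susceptible and 3 of 6 in resilient mice were positive in their own values.

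**Figure D3:**
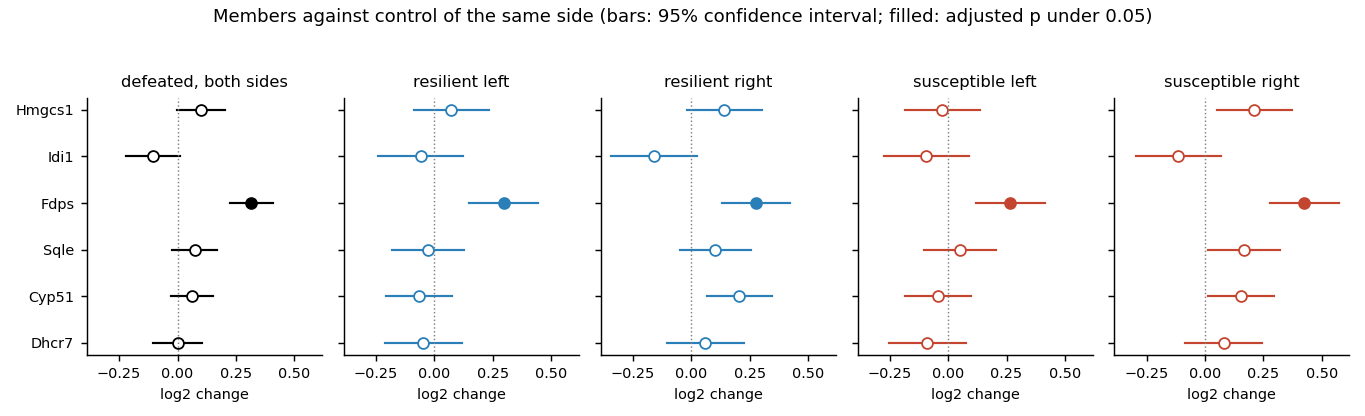
Log2 change of the 6 measured members against control (x axis) over both sides and for each defeated group and side; points are changes in quantile-normalized signal, bars 95% confidence intervals, filled points adjusted p under 0.05. Fdps is the only filled gene in each panel (0.27 to 0.43 per side), and with arrays scaled to a common median none is called and Fdps in susceptible left is at -0.03.

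Susceptible and resilient mice were then compared directly. None of the 6 members was called on the left (2.38% of all genes called), on the right (0.831%) or over both sides (1.76%). At an unadjusted p under 0.05 there was 1 member on the right, Fdps, at 0.15 ± 0.06 (adjusted p 0.328), beside 1072 of the 8419 genes. All 3 susceptible right arrays of Fdps lay above all 3 resilient right ones (lowest 11.059, highest 11.051), as for 7.67% of all genes. In the other comparisons there were 0 members, beside 1068 genes on the left and 1143 over both sides. Over both sides the median of the members was -0.00.

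The order of the 6 groups was not clear for any member. Ordered by mean, Fdps rose from control left (10.71 ± 0.03, SD) and control right (10.72 ± 0.09) to susceptible left (10.98 ± 0.11), resilient right (11.00 ± 0.05), resilient left (11.01 ± 0.05) and susceptible right (11.14 ± 0.07). Its arrays did not overlap between control right and susceptible left, nor between resilient left and susceptible right. The latter gap was narrow, with resilient left reaching 11.0576 and susceptible right starting at 11.0586. Idi1 had 1 such gap, between susceptible right and control right, and Cyp51 1, between control right and resilient left. The other 26 of 30 neighbouring groups overlapped, and the share of such gaps over all genes was not computed. The SD within groups ran from 0.06 for Cyp51 to 0.12 for Idi1, against a median of 0.08 over all genes.

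Laterality was expressed as log2 L/R, the left minus the right mPFC. In susceptible mice all 6 members were lower on the left, with a median log2 L/R of -0.12, while the median of all genes was 0.00 and 48.6% of all genes were negative. For 3 of them the sign depended on the arrays used. Cyp51 turned positive without susceptible left replicate 2 or susceptible right replicate 1 or 2 (at most 0.010), and Idi1 without susceptible left replicate 2 (0.0076). Dhcr7 stayed negative without any single array (-0.21 to -0.022). It turned positive within the first 8 arrays, where each side has 1 array (0.017). Hmgcs1 was 13.82, 13.59 and 13.61 on the left and 13.96, 13.78 and 13.86 on the right, which overlap, and its log2 L/R was -0.19 ± 0.07 (adjusted p 0.121). Fdps was at -0.17 ± 0.06 (0.158) and all 3 left arrays lay below all 3 right ones. The same held for Sqle (-0.09 ± 0.07), so 2 of 6 members did not overlap, beside 8.94% of all genes. Dhcr7 was at -0.13 ± 0.07, Idi1 at -0.10 ± 0.08 and Cyp51 at -0.00 ± 0.06. No member was called by limma, beside 5.21% of all genes. At an unadjusted p under 0.05 there were 2 members, beside 1403 of the 8419 genes. Without susceptible left replicate 1, Hmgcs1 was called at -0.27 (adjusted p 0.029).

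In resilient mice 5 of 6 members were lower on the left (median -0.05) and in control mice 2 of 6 (median 0.03). None was called (0.0356% and 0.0119% of all genes). At an unadjusted p under 0.05, 0 and 1 members passed, beside 368 and 420 of the 8419 genes. The member that did was Cyp51 in control mice, at 0.20 ± 0.08 (adjusted p 0.790). The difference in log2 L/R between susceptible and control mice ranged over the members from -0.23 to 0.02, and between susceptible and resilient mice from -0.18 to 0.08. No member was called in these either (2.63% and 2.15% of all genes). At an unadjusted p under 0.05 there were 1 and 0 members, beside 1084 and 1023 genes. A difference in laterality between the groups was thus not detectable for any member.

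Among the other enzymes of the pathway Msmo1, which oxidizes a pair of methyl groups of the sterol ring after Cyp51 has acted, was called. Its log2 signal was 10.64, 10.52 and 10.56 in susceptible left mPFC and 10.92, 10.92 and 10.96 in susceptible right. It was 10.95, 10.72 and 10.80 in resilient left, 10.88, 10.85 and 10.85 in resilient right, 10.91 and 10.99 in control left and 10.80 and 10.92 in control right. The 3 susceptible left arrays were the lowest of all 16. Its log2 L/R in susceptible mice was -0.36 ± 0.06 (adjusted p 4.1e-04, 2.45% of all genes called lower), and it was called against control left (-0.38 ± 0.07, 0.0019), against resilient left (-0.25 ± 0.06, 0.027) and in the difference of log2 L/R between susceptible and control mice (-0.46 ± 0.10, 0.0084). The first held without any single array (adjusted p up to 0.0046) and with the 2 sets of 8 arrays as a block, and was -0.28 (0.173) within the first 8 arrays, where each side has 1 susceptible array and the spread comes from the control arrays. The call against control left was lost without control left replicate 2 (0.0569). The call against resilient left was lost without resilient left replicate 1 or 3 or susceptible left replicate 2 or 3 (up to 0.169), and that of the difference without control left replicate 2 or control right replicate 1 (up to 0.0932). With arrays scaled to a common median all 4 kept their sign and none was called.

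The other 8 measured enzymes, from mevalonate phosphorylation (Pmvk, Mvd) and ring closure (Lss) to the late sterol steps (Tm7sf2, Nsdhl, Hsd17b7, Ebp, Sc5d), had no call in the left-right comparisons. With the members and Msmo1 they make 15 enzymes. In susceptible mice 15 of 15 had a negative log2 L/R (median -0.09, 1 called), in resilient mice 10 of 15 (median -0.04, 0 called) and in control mice 4 of 15 (median 0.04, 0 called). All 15 were negative in susceptible mice under median scaling, cyclic loess, normexp and the deposited normalized values too, also relative to the median of all genes. The count was lower where some single arrays were left out or the first 8 arrays were used alone, since Cyp51, Idi1 or Dhcr7 then turned positive as given above. It was not computed there for enzymes that are no members, other than Msmo1. The values of the 15 share the same 6 arrays, and the list was written with results of these data known.

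**Figure D4:**
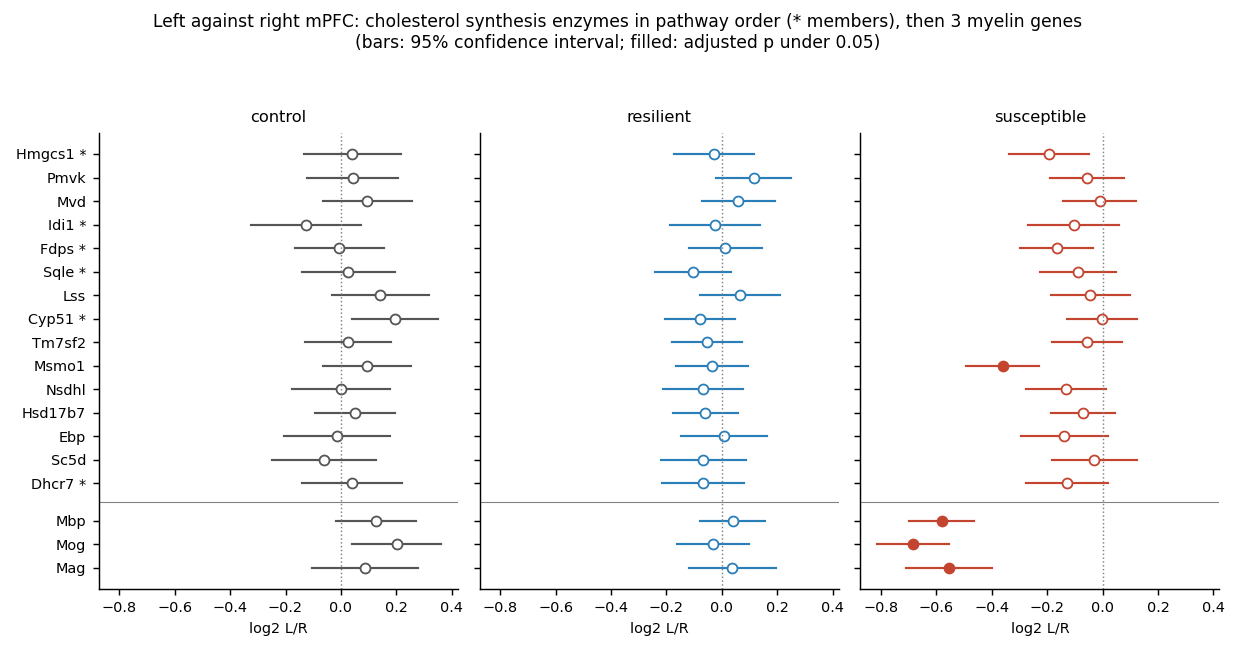
Log2 L/R of 15 cholesterol synthesis enzymes in pathway order (members with an asterisk) and of the myelin genes Mbp, Mog and Mag in control, resilient and susceptible mice (x axis); points are differences, bars 95% confidence intervals, filled points adjusted p under 0.05. All 15 enzymes are negative in susceptible mice and 4 of 15 in control mice, and Msmo1 is the only enzyme called.

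Myelin genes had the same direction in susceptible mice and a larger change. All 15 measured genes of the myelin list were called lower on the left (log2 L/R from -0.75 to -0.40, median -0.58), among them the sheath proteins Mbp (-0.58 ± 0.06), Mog (-0.68 ± 0.06) and Mag (-0.55 ± 0.08). In control mice 15 of 15 were positive (median 0.13) and in resilient mice 9 of 15 (median 0.02), none called. The summed signal of the list was 31099 to 31485 in susceptible left mPFC, 46658 to 47067 in susceptible right, 46943 to 49777 in resilient, and 40853 to 44936 in control mice. Of the 6 measured genes listed as oligodendrocyte precursor markers 5 were lower on the left in susceptible mice (median -0.08). Only Enpp6, named after its values were seen, was called, at -0.59 ± 0.06. Pdgfra was at -0.01 and Cspg4 at -0.08, and the rest lay between -0.18 (Olig1) and 0.01 (Bmp4). Sums of the 6, Enpp6 among them, were 5144 to 5613 on the left and 5947 to 6199 on the right. All 4 measured markers of the meninges were called higher on the left (median 0.74), with sums of 1591 to 1690 on the left and 1009 to 1051 on the right. S100b of 9 astrocyte markers (0.23 ± 0.07) and C1qc of 8 microglia markers (0.26 ± 0.06), named after their values were seen, were also called higher on the left. The summed signals of astrocyte (29284 to 30083 against 27077 to 28339), microglia (2752 to 2975 against 2680 to 2698) and endothelial markers (2439 to 2549 against 2304 to 2373) were higher on the left without overlap. Of the endothelial markers Itm2a was lower on the left (-0.07). The microglia sum was higher on the left without overlap in resilient mice too (2898.4 to 2989 against 2680 to 2807.5). The endothelial sum was lower on the left in resilient (2215.6 to 2297.5 against 2328.4 to 2472.5) and control mice (2175.6 to 2271.3 against 2422.7 to 2428.4). The part of these in the left-right values of the enzymes was not tested.

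Against control, Fdps and the myelin genes had opposite directions in susceptible left mPFC. There 14 of 15 myelin genes were called lower than in control left (median -0.48), while Fdps was called higher and the members had a median of -0.03. In susceptible right 6 of 15 myelin genes were called higher (median 0.20, members 0.16), in resilient left 2 (0.16, members -0.04) and in resilient right 5 (0.24, members 0.12). Over both sides 2 myelin genes, Mog and Trf, were called higher and 1, Mal, lower (median 0.02). With arrays brought to equal medians 13 of 15 myelin genes were still called lower in susceptible left, none was called in the other 3 groups, and the median in resilient left turned to -0.06. Fdps was thus above control on the 3 susceptible left arrays, where myelin genes were lowest (though not on that scaling, where its change there was -0.03), as well as on the arrays where they were highest, whereas Msmo1 was lowest on the former.

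**Figure D5:**
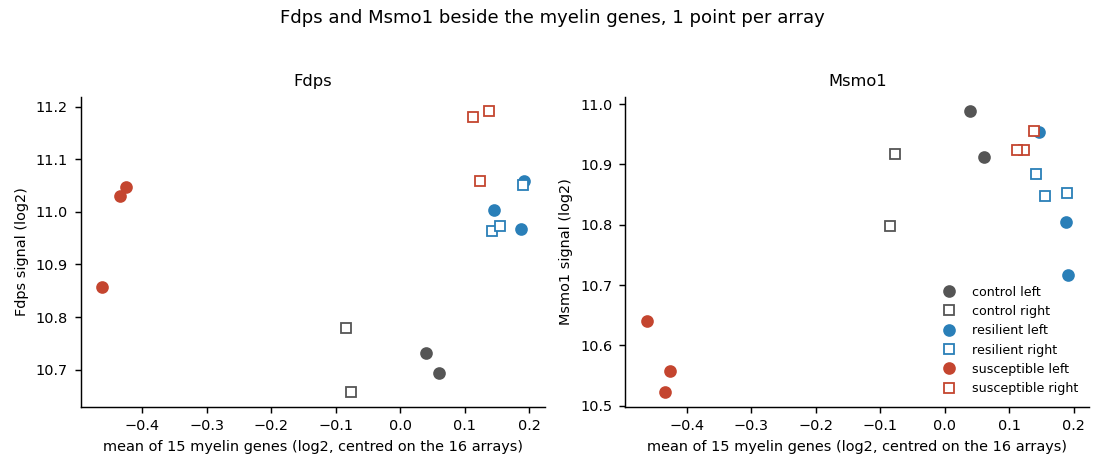
Log2 signal of Fdps and of Msmo1 (y axes) against the mean centred log2 signal of 15 myelin genes (x axis), 1 point per array (filled circles left, open squares right). The 3 susceptible left arrays stand apart at the left of each panel, with Fdps at 10.86 to 11.05, above the control arrays (with arrays brought to equal medians its change is -0.03), and Msmo1 at 10.52 to 10.64, below all other arrays.

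Among regulators of the pathway 1 gene was called. Of 7 measured genes of sterol sensing, Scap, the escort of SREBP2, was called lower in defeated than in control mice (-0.17 ± 0.05, adjusted p 0.027), beside 5.96% of all genes. Scap was lower on all defeated arrays (7.92 to 8.33) than on all control arrays (8.34 to 8.41), as were 1.14% of all genes. Its call was lost without any 1 of the 4 control arrays (adjusted p up to 0.123) with the 2 sets of 8 arrays as a block (0.144) and with the replicate number as a block (0.064). Srebf2, which encodes SREBP2, was at 0.09 ± 0.05 and Insig1, its own target and a retention factor, at -0.11 ± 0.06, neither called, both chosen after their values were seen. No gene of this list was called between left and right.

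Of 9 measured genes of cholesterol uptake and transport none was called in defeated against control mice or between left and right. At an unadjusted p under 0.05 there was 1 of them in defeated against control mice, beside 2236 of the 8419 genes. Between left and right there were 3, 0 and 1 in susceptible, resilient and control mice, beside 1403, 368 and 420 genes. Apoe, the main apolipoprotein of the brain, was called lower in susceptible right than in control right mPFC, beside 2.58% of all genes. It was at -0.26 ± 0.07 (adjusted p 0.040), with 10.47 to 10.53 against 10.66 to 10.87. Without control right replicate 2 it was at -0.15 (0.494), and the call was also lost without any 1 susceptible right array.

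SREBP factors also act on fatty acid synthesis, of which 9 genes were measured. In susceptible mice 7 of 9 were lower on the left (median -0.15). The stearoyl-CoA desaturase Scd1 was the 1 called (-0.24 ± 0.06, adjusted p 0.022), beside 2.45% of all genes called lower. Scd1 was 10.40 to 10.49 in susceptible left and 10.59 to 10.72 in susceptible right. It was called also against control left (-0.25 ± 0.07, 0.039), against resilient left (-0.26 ± 0.06, 0.020) and in the difference of log2 L/R between susceptible and resilient mice (-0.37 ± 0.09, 0.022). Each of these calls was lost without any of several single arrays, and also under alternatives other than leaving out 1 array, while the sign stayed. Over those other alternatives log2 L/R in susceptible mice ran from -0.33 to -0.23. The change ran from -0.55 to -0.22 against control left, from -0.31 to -0.25 against resilient left and from -0.45 to -0.36 in the difference. The call against control left was lost with the replicate number as a block (adjusted p 0.0516), among others. No gene of this list was called in defeated against control mice.

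The genes whose pattern over the 16 arrays was most like the mean of the 6 members were Olfml2b (Pearson r 0.87), Sebox (0.87), Aatk (0.85), Slc25a45 (0.83) and Hsd17b11 (0.82). The arrays share their groups and brightness, and r is a description of 16 arrays without a test. They were picked for likeness to the members over these same arrays. In defeated against control mice Hsd17b11 (0.21 ± 0.05) and Sebox (0.17 ± 0.05) were called, while Olfml2b (0.10 ± 0.04), Aatk (0.08 ± 0.04) and Slc25a45 (0.07 ± 0.04) were not (adjusted p 0.146 to 0.286). The log2 L/R in susceptible mice was called for Hsd17b11 (-0.31), Sebox (-0.29) and Olfml2b (-0.23), and not for Aatk (-0.13) or Slc25a45 (-0.13).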

How the data were processed

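The 16 arrays held mPFC RNA, left or right, from control, resilient or susceptible mice. The deposited values were average probe intensity with a detection score given as a fraction, and log2 values that the authors had normalized. The submitters' processing notes name GenomeStudio 1.0.6, lumi and limma, with no version for the last 2 and no normalization method in the sources used here. The deposited intensity values were not background-subtracted (51.9 to 37310), and subtracting the deposited score from 1 gave the detection p. The deposited log2 values of the authors were not centred on genes and were compressed at low signal, and their column medians were 7.2774 and 7.2775 (control left), 7.2771 and 7.2773 (control right), 7.2774, 7.2766 and 7.2774 (resilient left), 7.2775, 7.2774 and 7.2779 (resilient right), 7.277, 7.2777 and 7.2774 (susceptible left), and 7.2775, 7.2775 and 7.277 (susceptible right). They were used as an alternative.

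Here the intensities were taken to log2 and quantile normalized in R 4.3.3 with limma 3.58.1. Probes at a detection p of 0.05 or less on all 16 arrays were kept, with the brightest probe per gene, leaving 8419 genes. A model with 6 group means was fitted with lmFit and eBayes, 13 contrasts were tested two-sided, and p-values were adjusted over all genes by Benjamini-Hochberg. The fit was tested on simulated data. Gene names are those of the platform annotation, and positions and promoters are from RefSeq. No 2 arrays held identical values. The labels give left and right arrays the same replicate numbers but do not say that a number marks the same mice, so they were not treated as pairs. With group means taken out, correlations of same-numbered arrays ran from -0.02 to 0.341 over 8 pairs. Of the 8 left arrays 6 correlated best with the right array of their own number. The 2 control left arrays mirror each other once group means are taken out, so they give 1 outcome between them, at r 0.013. The replicate number was therefore also fitted as a block. Alternatives were other scalings, background correction, filters, probe rules, variance models, blocks, and each array left out.

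Members were named in full wherever 1 of them was called. Genes of the other sterol and fatty acid lists were named where called, up to 6 per direction, with Mbp, Mog and Mag for myelin and the 5 genes most alike by Pearson r. The members and lists were chosen with earlier results of these data known.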

Additional observations from a re-analysis of the deposited data

Results flagged for a closer look

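Some left-right differences were not the same in all groups, by the contrast of log2 L/R between groups in the limma fit. Of the cholesterol enzymes this held for Msmo1, whose log2 L/R differed by -0.46 between susceptible and control mice. In fatty acid synthesis it held for Scd1, at -0.37 between susceptible and resilient mice. The myelin genes differed more, with -0.71 for Mbp, -0.89 for Mog and -0.64 for Mag between susceptible and control mice and -0.62, -0.65 and -0.59 between susceptible and resilient mice. With arrays scaled to a common median all 8 differences stayed negative, and Mbp and Mag against control mice were still called.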

How the results depend on the processing

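Over 13 comparisons and 29 alternatives (377 pairs), the number of members called was the same in 349, and never above 2. With arrays scaled to a common median it was 0 in place of 1 in all 5 comparisons with control. It was 0 for susceptible left, resilient left and resilient right against control under normexp, with a block for the 2 sets of 8 arrays of the table, and within the first 8 arrays alone. It was 2 within the first 8 arrays for susceptible right (Fdps, and Hmgcs1 at 0.31) and 2 over both sides with the mean of each gene's probes (Fdps and Sqle). The first 8 arrays hold 1 array of each defeated group per side, so those values per side rest on a single array that is assumed to vary like the control arrays. Leaving out 1 array at a time gave 0 to 1 for susceptible left, resilient left and resilient right against control and for left against right in susceptible mice. Median scaling turned the sign of Hmgcs1 (-0.0029), Sqle (-0.15), Cyp51 (-0.15) and Dhcr7 (-0.11) over both sides, Sqle (-0.25) and Fdps (-0.027) in susceptible left, Sqle (-0.0089), Cyp51 (-0.040) and Dhcr7 (-0.038) in susceptible right, Hmgcs1 (-0.055) in resilient left, and Sqle (-0.059) and Dhcr7 (-0.030) in resilient right, each against control. Cyclic loess turned Dhcr7 over both sides (-0.0043) and Hmgcs1 in susceptible left (0.0079), normexp turned Dhcr7 over both sides (-0.0026), and the mean of probes turned Sqle in resilient left (0.10). That block turned Hmgcs1 in susceptible left (0.0062), and Sqle (0.011) and Idi1 (0.027) in resilient left. The first 8 arrays alone turned Dhcr7 between left and right in susceptible mice (0.017), Hmgcs1 (0.13) and Dhcr7 (0.067) in susceptible left, and Idi1 (0.053) in resilient left. Leaving out 1 array gave ranges through 0 for Dhcr7 over both sides (-0.019 to 0.027). In susceptible left against control they were -0.10 to 0.048 for Hmgcs1, -0.032 to 0.13 for Sqle, -0.16 to 0.019 for Idi1 and -0.17 to 0.017 for Dhcr7. In resilient left they were -0.11 to 0.055 for Sqle and -0.11 to 0.0046 for Idi1, and between left and right in susceptible mice -0.024 to 0.010 for Cyp51 and -0.18 to 0.0076 for Idi1. The cause was not tested. With the replicate number as a block, Fdps was at 0.31 over both sides (adjusted p 1.1e-04) and no count of members called changed. Of the left arrays 6 of 8 correlated best with the right array of their own number, the 2 control ones giving 1 outcome between them. Fits of every detected probe on its own, and those of the dimmer Sqle probe, were chosen after seeing the data. With 2 control arrays per side, signals per side rest on few arrays.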
